A study of Homo sapiens with 5 samples.

Results

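The nucleolar ribosome biogenesis factors described here are 47 genes, taken by symbol from a list of known factors, whose products make, modify, cut and assemble ribosomal RNA and ribosomal subunits. All 47 were found among the 26364 gene symbols of the deposited tables, and all 47 had a value above 0 in each of the 5 libraries. The 5 libraries, 1 for each of 5 groups, were all made from SH-SY5Y, an established line of human neuroblastoma cells used as a model of neuronal differentiation. Knockdown libraries used siRNA targeting STAU1 (siSTAU1) or UPF1 (siUPF1), with control siRNA in siControl, and the labels give 10% serum and 1% antibiotics in their medium. The libraries titled Nondifferentiation and Differentiation carry the same medium plus 50 uM retinoic acid on both labels, so the labels do not separate this pair by retinoic acid. The sources used here do not give the length of treatment or knockdown. STAU1 binds double-stranded RNA and recruits the helicase UPF1 to mRNAs in Staufen-mediated decay.

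Ribosomes are built in the nucleolus. RNA polymerase I copies the ribosomal DNA into a long precursor, and small nucleolar ribonucleoproteins (snoRNPs) guide the methylation and pseudouridylation of its nucleotides. A series of assembly factors cut and fold it with ribosomal proteins into the small and large subunits, which then leave the nucleus. Making ribosomes is among the costliest tasks of a growing cell, and many of its genes are known targets of the MYC family of transcription factors, which bind the E-box CACGTG. In neuroblastoma MYC proteins are a main driver of growth.

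Because the E-box links many of these genes, it was searched for in RefSeq promoter windows (build GRCh38.p14) that run from 250 bases before to 50 bases after each transcript start. CACGTG reads the same on both strands. Of the 47 members 42 had an entry, and 21 of the 42 (50.0%) held at least 1 E-box, against 8.77% of 27305 genes with an entry and 12.9% of the 7075 genes that also passed the expression floor used below. Counted per entry, since 8 members had more than 1 start, the shares were 44.0% of 50 member windows and 7.26% of all 35116 windows. Counted per gene, lists described below held it too: 11 of 31 other small subunit factors (35.5%) and 10 of 41 other large subunit factors (24.4%). It was found in 0 of the 3 polymerase I members, 0 of 8 other polymerase I genes and 0 of 10 other snoRNP assembly genes. A match of letters is a description and does not show that a factor binds there. The stretches below, each 30 bases from 5′ to 3′ on the gene's strand with the E-box in capitals, are shown because they belong to the members with a match that had the lowest differentiation fold in their role. Up to 3 are given for the large roles and 1 for the small ones, and UTP18 and EBNA1BP2 each hold a second match not printed.
FBL (chr19:39846356-39846385, minus strand): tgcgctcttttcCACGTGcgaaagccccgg
LYAR (chr4:4290068-4290097, minus strand): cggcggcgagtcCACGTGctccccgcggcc
BYSL (chr6:41921515-41921544, plus strand): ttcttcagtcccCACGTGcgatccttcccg
UTP18 (chr17:51260538-51260567, plus strand): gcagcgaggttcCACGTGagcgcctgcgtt
LTV1 (chr6:143843354-143843383, plus strand): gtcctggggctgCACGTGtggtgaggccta
MRTO4 (chr1:19251807-19251836, plus strand): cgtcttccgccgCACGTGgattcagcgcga
EBNA1BP2 (chr1:43172790-43172819, minus strand): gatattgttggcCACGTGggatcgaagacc
PAK1IP1 (chr6:10694959-10694988, plus strand): tggcggaagaggCACGTGcgctgctgaatg

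NOP10 held a pair of E-boxes, and the 250 bases before its start (chr15:34343137-34343386, minus strand) are shown to give their spacing.
NOP10: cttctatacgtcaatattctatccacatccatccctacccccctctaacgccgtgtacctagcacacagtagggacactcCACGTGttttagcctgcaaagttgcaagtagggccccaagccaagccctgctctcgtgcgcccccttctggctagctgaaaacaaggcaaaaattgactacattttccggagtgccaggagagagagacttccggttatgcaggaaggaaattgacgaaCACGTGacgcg
The first bases of these matches lie 170 and 11 bases before the start. Among the members the matches lay close to the start: 19 of 24 (79.2%) began between 25 bases before and 50 bases after it, against 22.1% of 2821 matches in all windows. In FBL, BYSL and MRTO4 the match began at bases 7, 29 and 15 of the transcript.

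**Figure D1:**
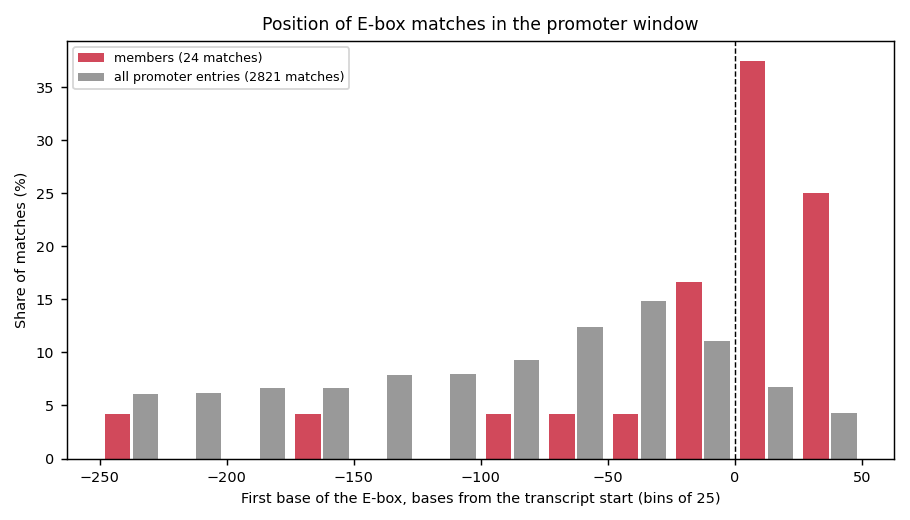
Share of E-box matches (percent, vertical axis) by distance of the first base from the transcript start (horizontal axis, bins of 25 bases), for the 24 matches in member windows (red) and the 2821 matches in all windows (grey). Most member matches lie in the bins at and just after the start, where few of all matches lie.

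The libraries were read from the 3′ ends of polyadenylated RNA, and the deposited values are log2 expression values on a common distribution. Where a gene's 5 values are listed, they stand in library order: the control siRNA library first, then siSTAU1, siUPF1, Nondifferentiation and last Differentiation. One read was worth between 0.621 linear units in Differentiation, the deepest library, and 1.32 in siControl, as judged from the steps between low values. The targeted mRNAs followed the labels: STAU1 had 11.34 in siSTAU1 against 12.87 in siControl, and UPF1 had 9.20 in siUPF1 against 10.74. Of 12 neuroblastoma markers 0 were at 0 in any library, and the median of these markers lay between 10.71 and 12.19. Among blood and endothelial markers PTPRC was at 0 in all 5 libraries, while HBB lay between 5.92 and 7.82. Of 6 glial markers SOX10 was at 0 in all 5, while PMP22 lay between 10.54 and 11.38. Both HBB and PMP22 were highest in Differentiation. Since every group is a single library, differences could not be set against replicates, and no test was run. The counting SE given with a log2 fold is an estimate from reads alone and leaves out the spread between cultures. The worth of a read was taken from low values only, so this SE is less certain for genes with high values. A gene passed the floor of a comparison when the larger of its values reached the pair's median nonzero value (7.76 on the log2 scale for the differentiation pair), and it is counted as lower or higher at 2-fold.

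Ribosome biogenesis factors were lower in Differentiation than in Nondifferentiation almost throughout. Of the 47 members 46 had a lower value, where 49.2% of the 15305 genes above 0 in both libraries did. By 2-fold or more 34 were lower, where 14.4% of these genes were. The median log2 fold of the 47 was -1.22. With the floor, 42 of the 47 passed and 32 of these were lower by 2-fold, where 10.9% of 9064 genes were, and 0 were higher, where 10.4% were. The median over the 9064 genes was 0.02. Of the 42 members, 33 reached the floor in both libraries, with 24 lower by 2-fold and a median of -1.21, and 9 reached it in Nondifferentiation alone. The 5 members under the floor were POLR1A, POLR1C, RRP9, NOC4L and WDR12, with log2 folds between -1.45 and -0.47. All 42 folds that passed the floor were larger than 2 counting SE, whose median was 0.072, and the SD of the folds over the members was 0.42. Markers of cell types also differed in this pair. The summed level of 10 mesenchymal markers had a log2 value of 15.67 in Nondifferentiation and 16.72 in Differentiation, within a range of 15.67 to 16.72 over the 5 libraries, with FN1 the highest gene in each. Of the 5 mesenchymal markers that passed the floor 2 were higher and 2 lower by 2-fold, from COL3A1 at 2.45 to TAGLN at -1.65. Of the 11 neuroblastoma markers that passed it 3 were lower and 1 was higher, from TH, the first enzyme of catecholamine synthesis, at -3.23 to CHGA at 1.60. HBB had a fold of 1.07 and PMP22 of 0.56. The part of these markers in the members' folds was not tested. The closest members on either side of the 2-fold line were DDX21 at -1.01 and GNL3 at -0.98.

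**Figure D2:**
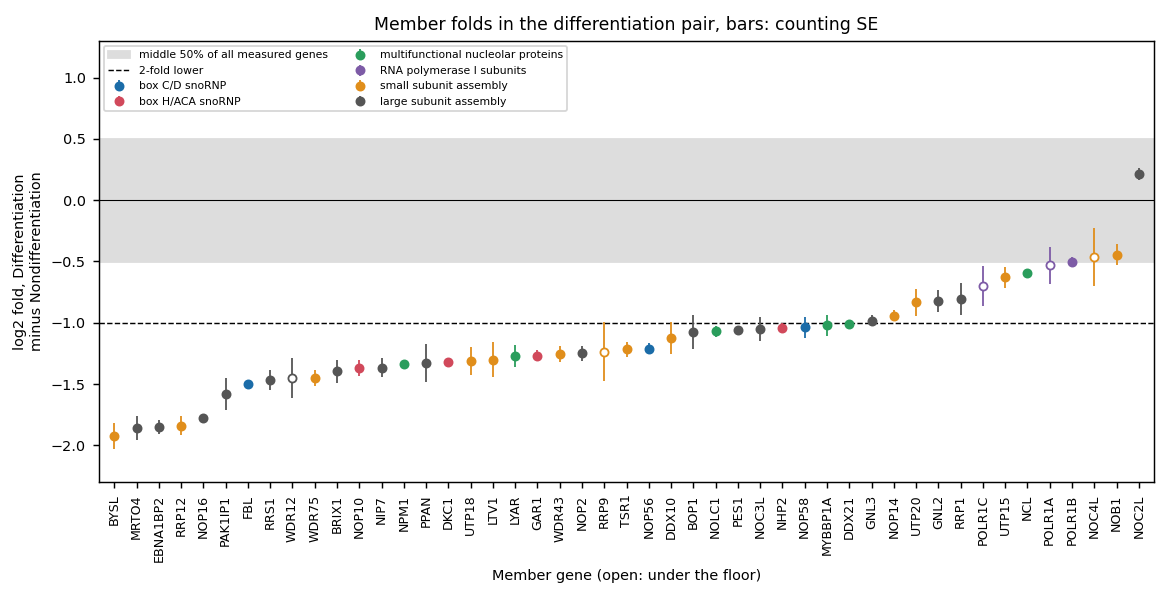
Log2 fold of each of the 47 members (vertical axis, Differentiation minus Nondifferentiation, bars show the counting SE), ordered from lowest to highest and coloured by role, with open points under the floor. All but NOC2L lie below 0, and 34 lie at or below the dashed line of 2-fold.

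Differentiation was also the lowest of all 5 libraries for 45 of the 47 members, which was so for 37.6% of the 14387 genes above 0 in all 5. The exceptions were NOC4L, lowest in siUPF1, and NOC2L, lowest in siControl. For 43 members the gap between Differentiation and the next library was wider than the range over the other 4 libraries, which was so for 22.2% of the same genes. The median gap was 1.00 and the median range over the other 4 was 0.38, both on the log2 scale.

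**Figure D3:**
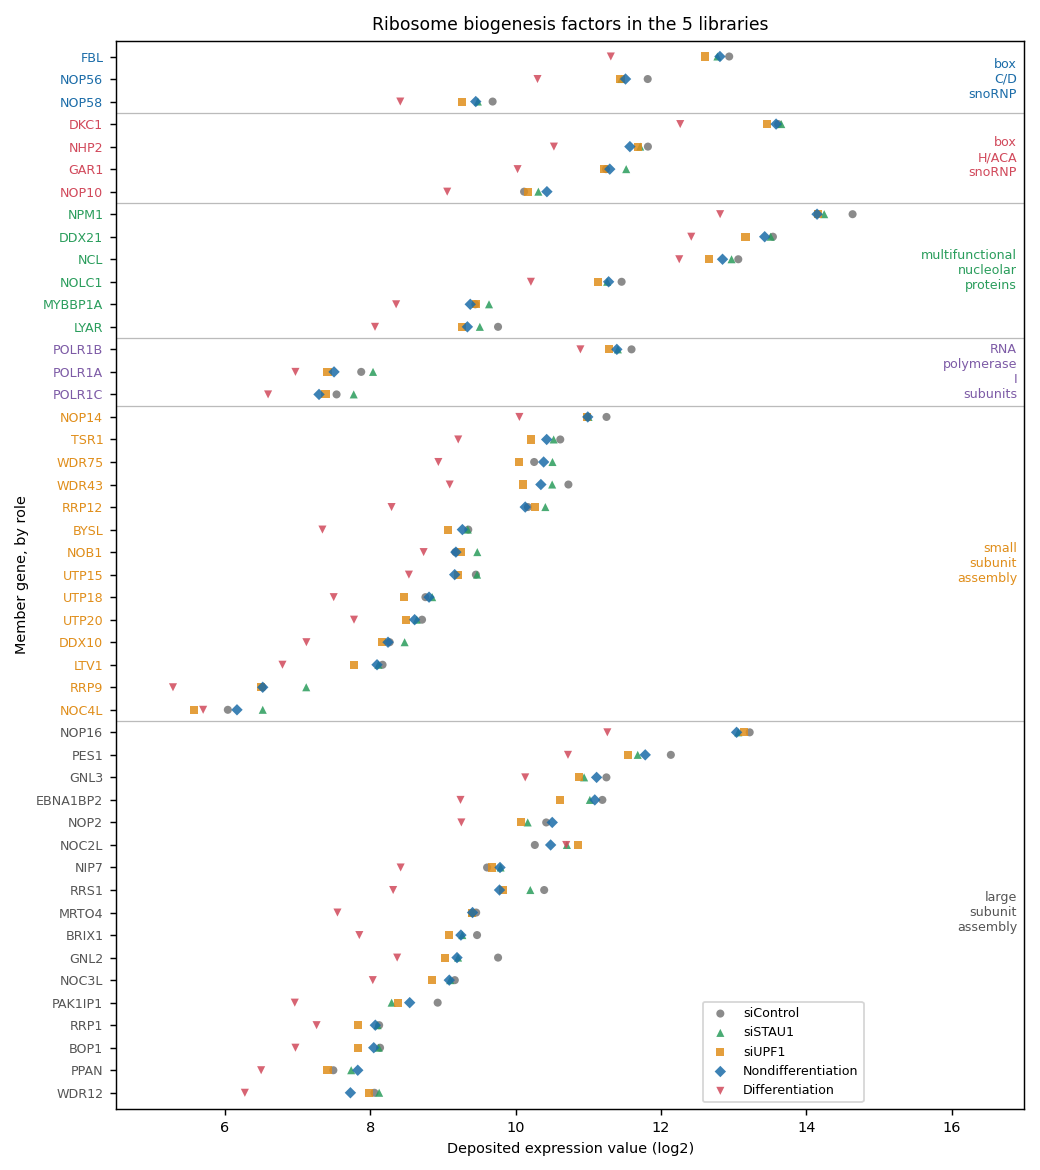
Deposited log2 value (horizontal axis) of each of the 47 members (rows, grouped by role) in the 5 libraries. The red Differentiation marks lie to the left of the other marks in 45 rows, and the other 4 libraries lie close to each other.

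The members of both snoRNP classes were lower, with 3 of 3 listed box C/D and 4 of 4 listed box H/ACA proteins past 2-fold. Other snoRNP genes, among them NHP2L1, were kept in a separate list described below. The box C/D particles methylate ribosomal RNA. FBL, fibrillarin, the methyltransferase of these particles, had 12.94, 12.78, 12.60, 12.81 and 11.31, which made it 2.83-fold lower, a log2 fold of -1.50 (counting SE 0.029). NOP56, a scaffold of the same particle, had 11.82, 11.45, 11.44, 11.51 and 10.30, with a fold of -1.21. Its partner NOP58 had 9.68, 9.48, 9.26, 9.45 and 8.41, with a fold of -1.04. In all 3 genes siControl was the highest library and Differentiation the lowest.

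The box H/ACA particles turn uridine into pseudouridine and also form part of telomerase. DKC1, dyskerin, the pseudouridine synthase, had 13.61, 13.65, 13.46, 13.58 and 12.26, a log2 fold of -1.32 (counting SE 0.021). NOP10, the smallest protein of the particle, had 10.12, 10.31, 10.16, 10.43 and 9.06, with a fold of -1.37. GAR1 had 11.24, 11.52, 11.21, 11.30 and 10.03, with a fold of -1.27. NHP2, which binds the guide RNA, had 11.82, 11.71, 11.69, 11.57 and 10.53, with a fold of -1.05. The 4 proteins of the particle thus lay within 0.33 of each other in this fold, from -1.37 to -1.05, and in the 4 other libraries each stayed above its Differentiation value.

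Among the abundant nucleolar proteins with several tasks, 5 of 6 were past 2-fold. NPM1, nucleophosmin, a chaperone of the outer nucleolar layer, had the highest value of all members: 14.64, 14.25, 14.15, 14.15 and 12.81, a log2 fold of -1.33 (counting SE 0.017). NCL, nucleolin, was the exception, with 13.06, 12.97, 12.66, 12.85 and 12.25 and a fold of -0.60, or 1.51-fold lower. DDX21, a helicase that acts in polymerase I transcription and rRNA processing, had 13.54, 13.51, 13.16, 13.43 and 12.42, with a fold of -1.01. Nucleolin was thus lower by less than nucleophosmin and DDX21. NOLC1, a chaperone of snoRNPs, had 11.46, 11.26, 11.14, 11.28 and 10.21, with a fold of -1.07. LYAR, a zinc finger protein of the nucleolus, had 9.76, 9.51, 9.26, 9.34 and 8.07, with a fold of -1.27. MYBBP1A, a MYB-binding protein of the nucleolus, had 9.45, 9.63, 9.45, 9.38 and 8.36, with a fold of -1.02. Differentiation was the lowest library for each of the 6.

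The RNA polymerase I subunits were lower by less, and 0 of 3 reached 2-fold. POLR1A, the largest subunit, had 7.88, 8.04, 7.41, 7.50 and 6.97, a log2 fold of -0.53 (counting SE 0.15). POLR1B, the second largest, had 11.59, 11.41, 11.29, 11.39 and 10.89, with a fold of -0.50 (counting SE 0.039). POLR1C, a subunit shared with RNA polymerase III, had 7.54, 7.77, 7.38, 7.29 and 6.59, with a fold of -0.70 (counting SE 0.17). POLR1A and POLR1C lay under the floor of this pair, so only POLR1B of the 3 entered the counts over the members that passed. The other polymerase I genes gave a similar picture: of 12 listed subunits and initiation factors 11 passed the floor, 0 were lower by 2-fold, and the median log2 fold was -0.39, from POLR1E at -0.85 to TAF1C at 0.30.

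Factors of the small subunit were lower in 14 of 14 members, with 9 past 2-fold and a median of -1.23. BYSL, bystin, which acts in late pre-40S maturation, had the lowest log2 fold of all members: 9.35, 9.34, 9.07, 9.27 and 7.34, a log2 fold of -1.93 (counting SE 0.11) and 3.80-fold lower. RRP12, needed for export of pre-ribosomes, had 10.17, 10.41, 10.26, 10.13 and 8.29, with a fold of -1.84. WDR75, a protein of the early small subunit processome, had 10.25, 10.51, 10.05, 10.39 and 8.94, with a fold of -1.45. In these 3 genes the 4 other libraries lay within 0.46 of each other. WDR43, another processome protein, had 10.73, 10.50, 10.10, 10.35 and 9.09, with a fold of -1.25. At the other end, NOB1, the endonuclease that makes the final cut of 18S rRNA, had 9.17, 9.47, 9.25, 9.18 and 8.73, with a fold of -0.44 (counting SE 0.083). UTP15 had 9.45, 9.47, 9.21, 9.16 and 8.53, with a fold of -0.63. Late pre-40S factors stood at both ends of the range, BYSL lowest and NOB1 highest. NOC4L had 6.04, 6.52, 5.58, 6.17 and 5.70, with a fold of -0.47 (counting SE 0.24), and lay under the floor. The other 5 past 2-fold lay between -1.31 and -1.12. UTP18, a processome protein, had 8.76, 8.85, 8.46, 8.81 and 7.50, with a fold of -1.31, and LTV1, a pre-40S export factor, had 8.17, 8.11, 7.77, 8.09 and 6.79, with -1.30. RRP9, which joins the U3 snoRNP, had 6.52, 7.12, 6.50, 6.52 and 5.29, with a fold of -1.24 under the floor. TSR1 had 10.61, 10.52, 10.21, 10.43 and 9.21, with -1.22, and the helicase DDX10 had 8.27, 8.47, 8.16, 8.24 and 7.12, with -1.12. In each of these 5 Differentiation was the lowest library. NOP14 and UTP20 lay at -0.94 and -0.83.

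Factors of the large subunit were lower in 16 of 17 members, with 13 past 2-fold and a median of -1.33. MRTO4, which holds the place of the stalk proteins on the pre-60S particle, had 9.46, 9.40, 9.40, 9.41 and 7.55, a log2 fold of -1.86 (counting SE 0.10). Its 4 other libraries were nearly level. EBNA1BP2, an early pre-60S factor, had 11.19, 11.02, 10.61, 11.09 and 9.24, with a fold of -1.85. NOP16 had 13.22, 13.06, 13.14, 13.04 and 11.26, with a fold of -1.78 (counting SE 0.028). The 3 genes were 3.63-, 3.60- and 3.43-fold lower. PAK1IP1 had 8.93, 8.29, 8.38, 8.54 and 6.96, with a fold of -1.58, and RRS1, which helps to place the 5S particle, had 10.39, 10.20, 9.82, 9.78 and 8.31, with -1.46. The PeBoW complex, in which PES1, BOP1 and WDR12 act together, was lower in each part, at -1.06, -1.08 and -1.45. PES1 had 12.14, 11.68, 11.55, 11.78 and 10.72, BOP1 had 8.13, 8.12, 7.84, 8.05 and 6.97, and WDR12 had 8.06, 8.12, 7.98, 7.73 and 6.27. PPAN had 7.49, 7.74, 7.41, 7.83 and 6.50, with a fold of -1.33, and PPAN-P2RY11, the readthrough transcript that shares its sequence, had -0.62, so its value is uncertain. Among the least lowered, RRP1 had 8.12, 8.10, 7.83, 8.07 and 7.26, with a fold of -0.81, and the GTPase GNL2 had 9.76, 9.21, 9.03, 9.19 and 8.37, with -0.82. GNL3, nucleostemin, a GTPase of proliferating stem cells, was next at -0.98. BRIX1, NIP7, NOP2 and NOC3L lay between -1.40 and -1.05. BRIX1, which binds early pre-60S particles, had 9.47, 9.27, 9.09, 9.25 and 7.85, and NIP7 had 9.61, 9.79, 9.67, 9.78 and 8.42. NOP2, an rRNA methyltransferase, had 10.42, 10.17, 10.08, 10.50 and 9.25, and NOC3L had 9.16, 9.10, 8.85, 9.09 and 8.03. In all 4 Differentiation lay lowest.

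NOC2L was the single member with a higher value in Differentiation, and its reads could not be assigned to it alone. It had 10.26, 10.71, 10.85, 10.48 and 10.70, a log2 fold of 0.21 (counting SE 0.049). SAMD11, whose annotated end overlaps that of NOC2L on the opposite strand, had values within 0.019 of these in every library: 10.28, 10.71, 10.85, 10.47 and 10.70. The sources used here do not say whether counting used the strand, and the reads of NOC2L and SAMD11 cannot be told apart in these values. In GENCODE 29 a gene listed in these tables lay over the last 1000 bases of 10 of the 47 members. Of these, MYBBP1A exceeded SPNS2 by 0.54 to 0.60 in every library and NOP14 exceeded NOP14-AS1 by 1.82 to 1.94, so these pairs too ran in parallel. TSR1 and SRR, whose folds were -1.22 and -1.47, lay within 0.40 of each other. Among members without such a neighbour 33 passed the floor, 27 were lower by 2-fold, and the median was -1.27.

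Other genes of ribosome production were lower in smaller numbers. Over the 9064 genes that passed the floor, 49.1% were below 0 and 10.9% were lower by 2-fold. Of 40 other small subunit factors, 39 of them in the tables, 33 passed the floor, and 6 were lower by 2-fold, with 32 below 0 and a median log2 fold of -0.67. IMP4 was lowest at -1.65 and WDR36 highest at 0.17. Of 51 other large subunit factors, 48 of them in the tables, 42 passed, and 11 were lower by 2-fold, with a median of -0.67, from RPF2 at -1.72 to DDX51 at 0.38. Of 14 other snoRNP assembly genes 13 passed and 4 were lower by 2-fold, led by the ATPase RUVBL2 at -1.63, with ZNHIT6 highest at 0.03. Of these 3 lists 0 genes were higher by 2-fold. All 73 cytosolic ribosomal protein genes were below 0, with a median of -0.60, and 8 of them, a share near the 10.9% of all genes, were lower by 2-fold, from RPL35 at -1.34 to RPL13A at -0.09. Members and lists were chosen with earlier results of these data known. The differences between these lists and the members were not tested.

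**Figure D4:**
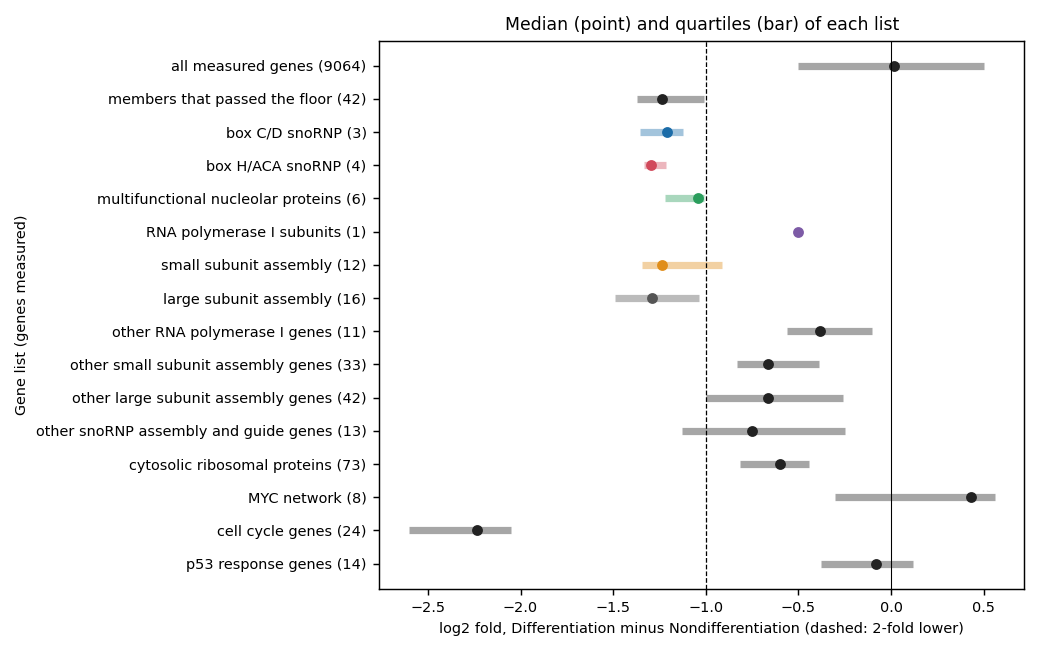
Median (point) and quartiles (bar) of the log2 fold of Differentiation against Nondifferentiation (horizontal axis) for each gene list, with the number of genes that passed the floor. The members lie near -1.23 and the other ribosome lists between -0.75 and -0.39, while all measured genes centre on 0.02 and the cell cycle list on -2.23.

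Proliferation markers were lower in the same pair, and genes of the MYC network differed in both directions. All 24 cell cycle genes passed the floor and all 24 were lower by 2-fold, with a median of -2.23, from CDC20 at -3.93 to the replication helicase subunit MCM3 at -1.36. Of the 8 MYC network genes that passed the floor 5 were above 0, 2 were lower and 1 was higher by 2-fold, and the median was 0.43. MYC and MYCN themselves lay under the floor in this pair. MYC had 7.15, 7.88, 6.38 and 6.34 in the libraries other than Differentiation, where it was listed at 0. MYCN, with 5.80, 5.77, 3.81 and 5.86, was also listed at 0 there. MXD4, a repressor that competes with MYC proteins for MAX, had 9.17 in Nondifferentiation and 11.11 in Differentiation, a log2 fold of 1.94, and MXD3 had -1.17. Of the 14 p53 response genes that passed the floor, 1 was lower by 2-fold and 0 were higher, with a median of -0.08, from DDB2 at -1.17 to GDF15 at 0.80. The p53 list also differed between the 2 references. In siControl against Nondifferentiation its median was -0.50, with 12 of 14 below 0, where 49.0% of 8547 genes were. By 2-fold 3 of the 14 were lower, where 0.573% of genes were, and folds ran from CDKN1A at -1.83 to TP53I3 at 0.78. Of 10 neuroblastoma markers that passed the floor there 2 were lower by 2-fold and 0 higher, with TH lowest at -2.13. GDF15 had 8.59 in siControl, 9.84 in Nondifferentiation and 10.64 in Differentiation. The part of the cell cycle and MYC values in the members' folds was not tested. In bulk RNA, fewer cells of a dividing type and less of these mRNAs per cell cannot be told apart. Members with and without an E-box had close folds in the differentiation pair: the median was -1.26 over 20 with a match and -1.21 over 17 without, among those that passed the floor. Of those with a match 16 of 20 (80%) were lower by 2-fold, and of those without 11 of 17 (64.7%). Over all genes that passed it, the medians were -0.02 with a match and 0.04 without, and 13.8% of those with a match were lower by 2-fold against 10.3% of those without.

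After UPF1 knockdown the members were slightly lower, and 0 of 47 were lower or higher by 2-fold, where 4.82% and 5.02% of genes above 0 in both libraries were. In siUPF1 41 of the 47 lay below siControl, where 50.8% of the 15387 genes above 0 in both libraries did, and the median log2 fold was -0.30. Of the 43 that passed the floor 37 were below 0, where 51.8% of 8475 genes were, and the lower and higher calls at 2-fold covered 0.142% and 0.401% of these genes. The lowest were GNL2 at -0.72 (counting SE 0.086), WDR43 at -0.62 and PES1 at -0.59. LYAR, one of the nucleolar proteins, had -0.50. The highest were NOC2L at 0.59, RRP12 at 0.10 and NOB1 at 0.08. By role, 3 of 3 box C/D proteins lay below siControl with a median of -0.37, whereas the box H/ACA median was -0.08. The cytosolic ribosomal proteins had a median of -0.12, with 59 of 73 below 0, and the cell cycle list had -0.03. The lists most like the members were lower too. Below 0 were 29 of 35 other small subunit genes (median -0.22) and 31 of 42 other large subunit genes (-0.21). So were 8 of 11 other polymerase I genes (-0.19) and 10 of 13 other snoRNP assembly genes (-0.09). Against Nondifferentiation, the other library without knockdown, the median of the members was -0.16, with 33 of 43 below 0. Of the 47 members 34 lay below both references in siUPF1, where 33.7% of 15043 genes did. Across the 41 members that passed the floor in both comparisons, the siUPF1 and differentiation folds had a Spearman correlation of 0.04 and a Pearson correlation of 0.26. Over 8341 genes these were 0.26 and 0.25, so the members and all genes lay apart by the rank measure and close by Pearson's. NOC2L, whose reads could not be told from those of SAMD11, had the highest member fold in both comparisons. Its weight in the Pearson value was not tested. For siSTAU1 the Spearman and Pearson values were 0.01 and 0.18 over 41 members, and 0.02 and 0.03 over 8305 genes. Neither knockdown comparison shares a library with the differentiation pair, but all share the normalization over all 5.

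STAU1 knockdown left the members near siControl. In siSTAU1 29 of the 47 were below siControl, where 49.2% of genes above 0 in both libraries were, and the median log2 fold was -0.06. Of these 47, 0 were lower or higher by 2-fold, where 4.64% and 4.56% of genes above 0 in both were. Among the 8454 genes that passed the floor the shares were 0.106% and 0.0946%, and of the 43 members that passed it 29 were below 0, where 48.9% of genes were. PAK1IP1 was lowest at -0.63 (counting SE 0.12), followed by GNL2 at -0.55 and PES1 at -0.46. NOC2L was highest of those that passed the floor at 0.44, followed by NOB1 at 0.30 and GAR1 at 0.28, and RRP9, under the floor, had 0.60 (counting SE 0.22), with NOC4L, also under it, at 0.48. The direction of the median turned with the reference: against Nondifferentiation it was 0.04, with 11 of 44 below 0. Only 9 of the 47 lay below both references in siSTAU1, where 30.6% of genes did. Of 10 epithelial markers 0 were at 0 in siSTAU1 and 5 in siControl, and their summed level had a log2 value of 10.16 against 9.31, within a range of 9.01 to 10.16 over the 5 libraries. Only CLDN7 of the 10 passed the floor of this pair, and it had a fold of -0.20, so the higher sum came from genes under the floor. Differentiation, with 0 of 10 at 0 as well, had the lowest sum. The part of these markers in the small folds was not tested. The comparisons of siSTAU1 and siUPF1 share siControl, so a value that is high in siControl lowers both.

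Many members were indeed high in siControl. Of the 47, 36 lay above Nondifferentiation in siControl. The other 11 lay below it, where 48.3% of the 15527 genes above 0 in both did. Past 2-fold there were 0 members, where 4.78% of these genes were lower and 5.06% higher. In siControl 28 members had their highest value of the 5 libraries, where 17.3% of genes did. The median log2 fold of siControl against Nondifferentiation was 0.11 over the 47. Of the 44 that passed the floor 9 were below 0, where 49% of 8547 genes were, and 0 were past 2-fold, where 0.573% were lower and 0.222% higher. RRS1 had the highest log2 fold at 0.61 (counting SE 0.068), then GNL2 at 0.56 and NPM1 at 0.49. PPAN had the lowest at -0.34, followed by NOP10 at -0.31 and NOC2L at -0.22. GNL2 was thus among the 3 highest here and among the 3 lowest in both knockdown comparisons, and all of these rest on its siControl value of 9.76. Other lists were also higher in siControl than in Nondifferentiation. Below 0 were 2 of 24 cell cycle genes (median 0.23) and 2 of 11 other polymerase I genes (0.36). The other small and large subunit lists had medians of 0.18 and 0.14, and the ribosomal proteins 0.10. The MYC network list had -0.01 and the p53 list -0.50. Against siControl in place of Nondifferentiation, 35 of the 43 members that passed the floor were lower by 2-fold in Differentiation, where 12.3% of 9032 genes were. Of these 43, 42 were below 0, where 49.2% of the 9032 genes were. NOC2L was the exception, and the median of the members was -1.27.

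**Figure D5:**
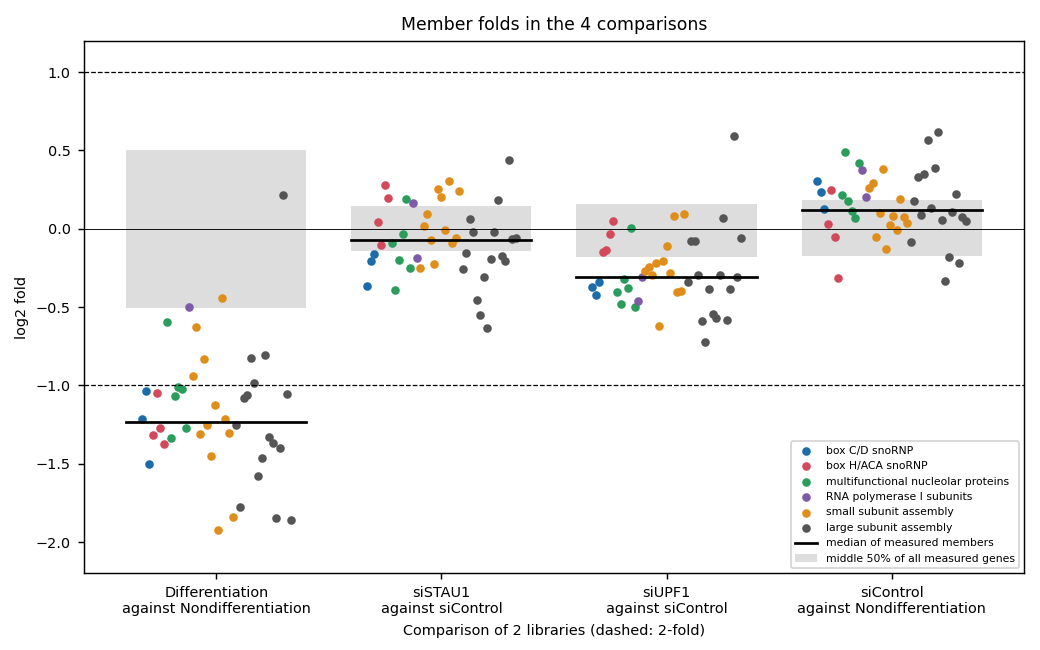
Log2 folds (vertical axis) of the members that passed the floor in each of the 4 comparisons, coloured by role, with their median (black line) and the middle 50% of all measured genes (grey). The median is -1.23 in the differentiation pair, -0.07 in siSTAU1, -0.31 in siUPF1 and 0.12 in siControl against Nondifferentiation.

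The genes whose profile over the 5 libraries was nearest to the members' mean profile were sought among 7279 other genes at or above a log2 value of 7.81 in all 5, by Euclidean distance of values centred on each gene's own mean. The mean member lay 0.34 above its own mean in siControl, 0.31 in siSTAU1, 0.08 in siUPF1 and 0.21 in Nondifferentiation, and at -0.94 in Differentiation. The 5 nearest were IVNS1ABP at a distance of 0.036, the ribosomal protein gene RPSA at 0.036, the glycosyltransferase gene B3GNT5 at 0.057, the ribosomal protein gene RPL23A at 0.059 and RPSAP58 at 0.069. RPSAP58 is a near-identical copy of RPSA that could share its reads. RPSA had 12.42, 12.36, 12.12, 12.29 and 11.12.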

How the data were processed

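The 5 SH-SY5Y libraries were grouped by their sample titles, 1 per group. Per the labels' protocols, each was made from 500 ng total RNA with the QuantSeq kit of Lexogen. This kit reads 3′ ends, so values do not scale with gene length. The deposited values are log2 expression values per gene symbol. The submitters' processing notes list Bowtie2, edgeR and hg19 but no roles. The sources used here do not name the counting tool, its annotation or its use of strand. The highest log2 value was 18.01 in every library and the upper quartiles lay between 8.63 and 8.64, a pattern of quantile normalization, which is an inference and hides differences in total RNA.

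Log2 folds were differences of deposited values. Reads were estimated by dividing linear values by the mean spacing of distinct values between 5 and 30. The smallest member rested on about 44 reads. The members, lists, roles and the naming rule (every member past 2-fold, roles of 6 or fewer whole, the 3 highest and 3 lowest of larger roles and of each comparison, the extremes of each pathway list, and the 5 nearest profiles) were chosen with earlier results of these data known. RefSeq promoters were matched by symbol. GENCODE 29 is of another build and served for neighbours only. Alternatives were a 1.5-fold threshold, other floors, pseudocounts, centrings and references. The software was matplotlib 3.10.9, scipy 1.17.1, pandas 2.3.3 and numpy 2.4.6 under Python 3.11.15. The floor, folds and 2-fold calls were tested on simulated data with changes larger than 2-fold in genes well above the floor. The simulation did not cover changes near the 2-fold line, changed genes near the floor, or the promoter and neighbour searches.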

Additional observations from a re-analysis of the deposited data

How the results depend on the processing

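The members' median in Differentiation stayed below 0 under all alternatives run. The members counted lower ranged from 22 of 42 with a pseudocount of 100 (8.14% of all genes), where the median log2 fold moved to -1.01, to 39 of 42 at a threshold of 1.5-fold (21.7% of all genes). Without a floor 34 of 47 were counted (14.4%), and with the floor raised by 1 on the log2 scale 27 of 35 (11%). Centring moved the median to -1.25. Leaving out members with a neighbour over their last 1000 bases was chosen after seeing the data. At 1.5-fold, 1 of 43 members was counted lower in siSTAU1 (PAK1IP1; 1.29% of all genes), 3 of 43 were lower (GNL2, WDR43 and PES1; 1.56%) and 1 was higher (NOC2L; 3.0%) in siUPF1, and 1 of 44 was higher (RRS1; 2.26%) in siControl against Nondifferentiation. The counts of 1 member are near those shares. With Nondifferentiation as the reference, 11 members were below 0 in siSTAU1 and the median was 0.037, and the siUPF1 median was -0.16. No paired analysis was possible because each group holds 1 library, and no replicate could be left out. Depth limits RRP9 and NOC4L most, with counting SEs of 0.24 in the differentiation pair.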
